A study of Mus musculus with 4 samples.

Results

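The genes described here encode integrins and the adhesion molecules with which leukocytes and epithelial cells hold on to vessel walls, matrix and each other. They were taken from a list of 33 mouse genes by symbol. Of these, 32 had an array row annotated with their symbol alone, out of 19938 genes measured in that way, and Selp was not analysed here. The list holds 5 integrin subunits mainly of epithelia, 8 of leukocytes, 13 that bind matrix in many cell types, and 7 ligands, selectins and related receptors, of which 6 were measured.

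Messenger RNA was measured in liver on 4 Affymetrix whole-transcript arrays, 1 per genotype. The genotypes were wild type, MDR2 knockout (MDR2-null), GHR knockout (GHR-null) and the GHR/MDR2 double knockout (double-null). Each array carried RNA pooled from 3 livers of 8-week-old mice labelled male. MDR2, the protein of Abcb4, secretes phospholipid into bile, and its loss is a model of cholestasis with bile duct injury and fibrosis. GHR is the growth hormone receptor, and the series addresses growth hormone resistance in cholestatic fibrosis. The labels name no strain and no cell type for the deletions.

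Integrins are pairs of an alpha and a beta subunit that span the membrane and join matrix or a neighbouring cell to the cytoskeleton. Leukocytes slow down on selectins, then arrest when their beta 2 and alpha 4 integrins bind ICAM-1 and VCAM-1 on the vessel wall. Epithelial cells rest on laminin through alpha 3 and alpha 6 integrins, and the pairs of alpha v with beta 6 or beta 8 release active TGF beta, a main driver of fibrosis, from its latent form.

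Because each genotype was a single array, pairwise differences describe these pools and have no replicate check or p-value. Levels are linear intensities, given for the pools always in the order wild type, MDR2-null, GHR-null, double knockout, and differences are log2 of their ratio. No detection call was used, so a level under 100 may be background, and 6 members (Itgb6, Itgae, Itgb7, Itga10, Itga11 and Sele) stayed under 100 on every array. The targeted genes were lower where they had been deleted. Ghr stood at 4944 in wild type, 4485 with MDR2 loss, 1395 with GHR loss and 935 with both, and Abcb4 at 1120, 663, 1346 and 689. The hepatocyte markers had intensities of at least 2833 on every array, except Fgl1 at 351 in the double-null pool. In the GHR-null pool Xist went against the label for sex, while Y-linked genes were present. Xist, expressed from the inactive X chromosome of females, stood at 1400 there, against 16, 18 and 17 on the other 3 arrays. Its Y-linked genes Eif2s3y, Kdm5d and Uty stood at 680, 259 and 308. The GHR-null array enters neither the comparison of MDR2-null with wild type nor that of double-null with MDR2-null.

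Adhesion genes were higher with loss of MDR2, and many were higher again when GHR was also lost. Of 32 measured members, 12 were at least 1.5-fold higher in the MDR2-null than in the wild-type pool and 0 were lower by as much. Over all genes 4.09% were higher and 2.03% lower by this measure. Of the 12, Itgb8, Itgam and Itgax were under 100 on both arrays. In the double-null against the MDR2-null pool 10 members were higher and 0 lower, where 4.45% of all genes were higher and 2.31% lower. At 2-fold, 7 members were higher with MDR2 loss alone, where 1.33% of all genes were higher and 0.421% lower, and 5 in double-null against MDR2-null, where 1.36% were higher and 0.873% lower. The members' median difference was 0.40 log2 units with MDR2 loss alone and 0.36 in double-null against MDR2-null, where the median over all genes was 0.00 in each. In whole liver, more cells of a type and more RNA per cell cannot be told apart.

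**Figure D1:**
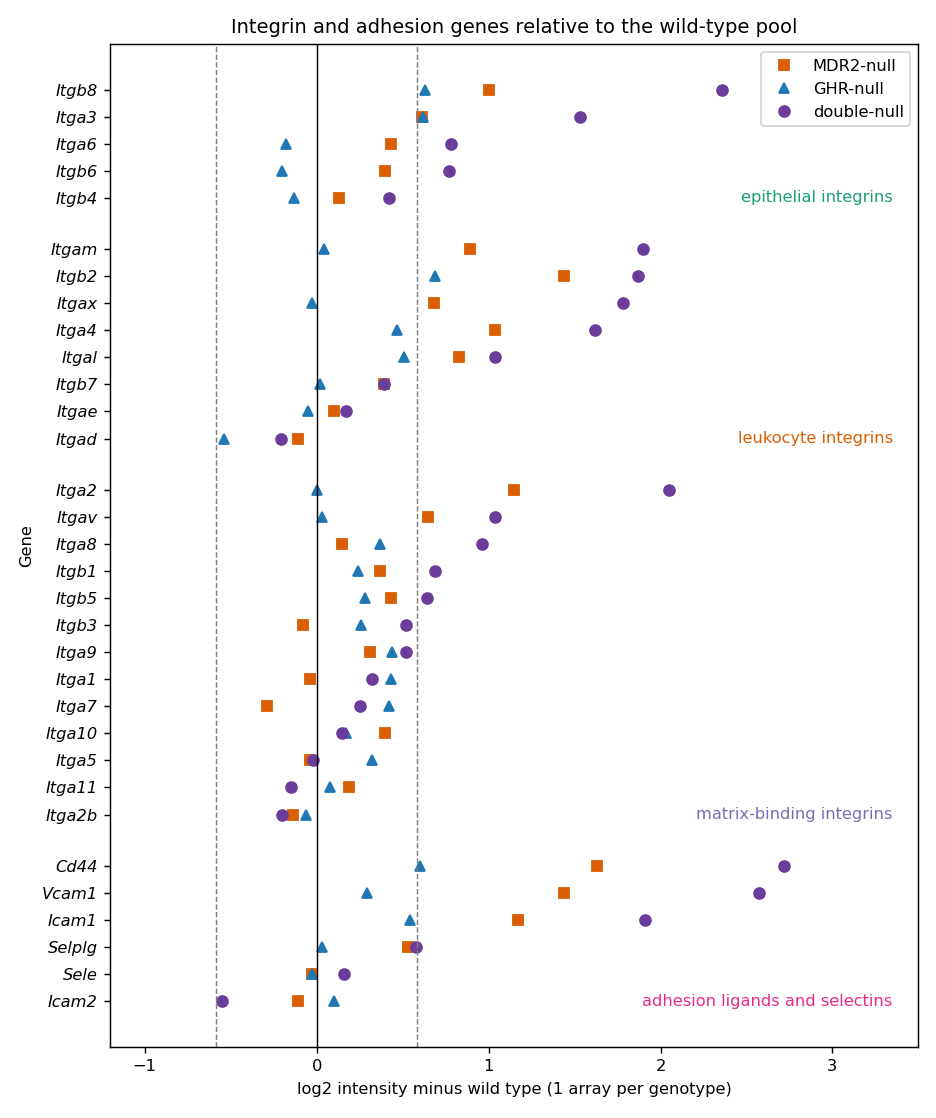
Difference in log2 intensity from the wild-type pool (x axis) for each of the 32 measured genes (y axis) in the MDR2-null (squares), GHR-null (triangles) and double-null (circles) pools, 1 array each; dashed lines mark 1.5-fold. The double-null circles of Cd44, Vcam1 and Itgb8 lie farthest right, at 2.72, 2.57 and 2.36.

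A group of 8 members was at least 1.5-fold higher at each of these steps: Itga3, Itgb8, Itgam, Itgax, Itga2, Vcam1, Icam1 and Cd44. Over all genes 1.22% met both conditions. The steps share the MDR2-null array. The members nearest the threshold for the second step were Itgb3, just inside at 0.60, and Itga4, just outside at 0.58. In all, 21 of 32 members lay higher in the MDR2-null than in the wild-type pool and higher again in the double-null pool, an order that 19.6% of all genes had. The double-null pool had the highest level of 23 members, a count with no share over all genes beside it. It includes the nearly flat Sele, at 50 to 57, and Itgae, at 55 to 64.

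**Figure D2:**
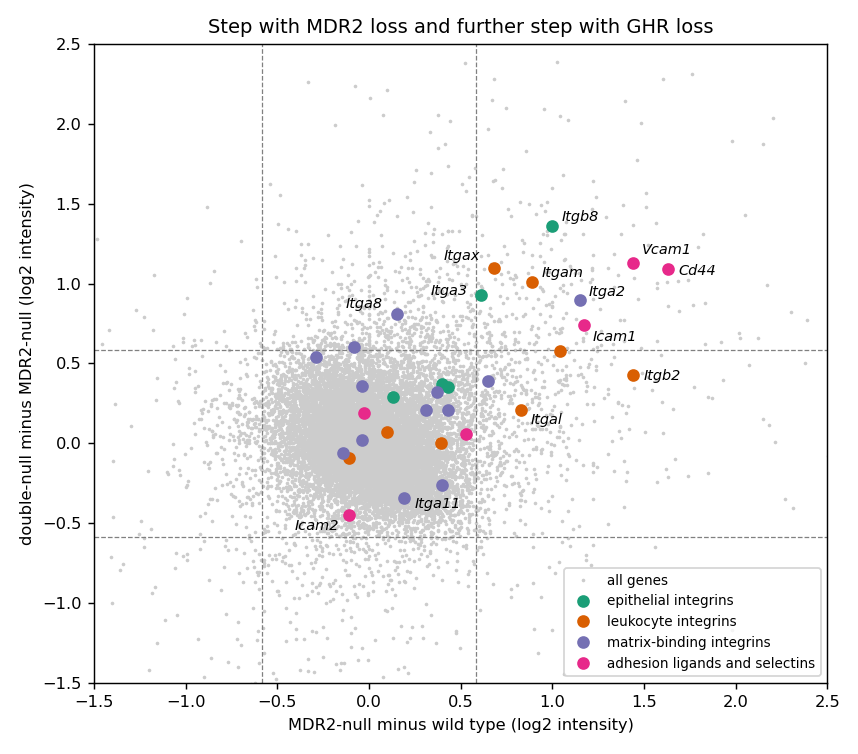
Log2 intensity of the MDR2-null minus the wild-type pool (x axis) against the double-null minus the MDR2-null pool (y axis) for the members, coloured by group, over all genes in grey; the axes share the MDR2-null array, and 137 genes lie outside the range drawn. The 8 members past both upper dashed lines (1.5-fold) were 0.61 to 1.63 higher on the x axis and 0.74 to 1.36 on the y axis.

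These 8 genes were high in the same pools. Promoters are shown for those with a match, at their first start, to a motif given below. That of Sele, which was not high in these pools, is shown beside them. RefSeq (GRCm38.p6) gave a start for 22 of the 33 listed genes and for 7 of the 8 just named. Each line is the 250 bases before the start, on the gene's strand. Capitals mark matches, on either strand, to GAGGAA (the core bound by PU.1, a factor of myeloid cells), GGNNNTTCC (a form of the NF-kappaB site) or TGANTCA (AP-1), and no matches of different motifs overlapped.
Icam1, chr9:21015690-21015939, + strand: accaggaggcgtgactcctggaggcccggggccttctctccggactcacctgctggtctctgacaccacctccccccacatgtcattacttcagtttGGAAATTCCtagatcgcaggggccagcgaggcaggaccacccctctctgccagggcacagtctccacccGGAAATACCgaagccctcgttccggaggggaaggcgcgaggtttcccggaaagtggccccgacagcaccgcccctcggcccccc
Cd44, chr2:102901666-102901915, - strand: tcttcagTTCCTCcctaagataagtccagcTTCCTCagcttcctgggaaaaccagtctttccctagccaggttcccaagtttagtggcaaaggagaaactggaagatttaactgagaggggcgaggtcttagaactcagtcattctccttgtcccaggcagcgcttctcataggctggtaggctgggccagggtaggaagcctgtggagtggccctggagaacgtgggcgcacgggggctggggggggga
Itgam, chr7:128062390-128062639, + strand: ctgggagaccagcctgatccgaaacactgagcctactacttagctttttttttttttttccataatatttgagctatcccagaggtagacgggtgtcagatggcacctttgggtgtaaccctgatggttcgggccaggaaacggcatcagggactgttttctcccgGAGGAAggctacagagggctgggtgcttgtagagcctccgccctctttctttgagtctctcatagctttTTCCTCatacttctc
Itgax, chr7:128129300-128129549, + strand: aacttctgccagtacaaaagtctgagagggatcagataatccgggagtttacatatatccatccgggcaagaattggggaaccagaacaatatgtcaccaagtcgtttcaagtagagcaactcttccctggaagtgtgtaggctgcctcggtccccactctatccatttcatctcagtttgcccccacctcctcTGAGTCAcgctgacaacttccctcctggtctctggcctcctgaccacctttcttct
Sele, chr1:164047984-164048233, + strand: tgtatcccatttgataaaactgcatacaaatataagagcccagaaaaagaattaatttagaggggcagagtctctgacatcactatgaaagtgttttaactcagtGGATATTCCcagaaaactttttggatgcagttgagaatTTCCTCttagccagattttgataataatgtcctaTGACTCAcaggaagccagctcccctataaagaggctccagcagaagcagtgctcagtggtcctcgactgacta

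The Icam1 stretch held GGAAATTCC at -153 and GGAAATACC at -84, counted from the start, and Itgam held GAGGAA at -84 and its reverse complement at -15. Cd44 held that complement at -243 and -220, and Itgax held TGAGTCA at -56. Sele held a match to each of the 3 motifs. The first starts of Itga2, Itgb8 and Itga3 held none and are not shown. Another start of Itga3, also not shown, held TTCCTC at -68. Among 32851 RefSeq promoters cut to the same length, GAGGAA was present in 23.3%, GGNNNTTCC in 15.7% and TGANTCA in 6.75%. Among the first starts of the 22 listed genes it was 8, 5 and 3 genes. A match is a description of letters and not a measured site.

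Among the epithelial integrins, Itgb8 and Itga3 differed most. Itgb8, which pairs with alpha v and activates TGF beta, stood at 40 in wild type, 80 with MDR2 loss, 62 with GHR loss and 205 with both. Only the double-null value was above 100. The double-null pool was 2.56-fold above the MDR2-null pool. Itga3, the alpha subunit of a laminin receptor, stood at 92, 140, 141 and 266 in the same order. Each single knockout was thus about equally far above wild type, 1.52-fold and 1.53-fold, and the double-null pool 2.89-fold.

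The other epithelial subunits had intensities from 27 to 120, and each was highest in the double-null pool. Itga6, which pairs with beta 4 in hemidesmosomes, stood at 70, 94, 62 and 120 in the usual order of pools. Its partner Itgb4 stood at 83, 91, 76 and 111. Itgb6, whose pair with alpha v activates TGF beta and is typical of injured bile duct epithelium, stood at 31, 41, 27 and 53. All 5 epithelial subunits were higher in the MDR2-null than in the wild-type pool (median 0.43 log2, 2 past 1.5-fold), and all 5 were higher again in the double-null pool (median 0.37, 2 past 1.5-fold). In the GHR-null pool Itga6, Itgb4 and Itgb6 were below wild type and the median was -0.13.

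Markers of bile duct cells were higher in the same pools as these subunits. Of 11 measured markers, 9 were at least 1.5-fold higher in the MDR2-null than in the wild-type pool and 10 higher in double-null against MDR2-null, with 0 lower in either. Their summed intensity was 736 in wild type, 1311 with MDR2 loss, 912 with GHR loss and 2876 with both. Epcam, an adhesion molecule of these cells, stood at 48, 113, 40 and 329. The chloride channel gene Cftr stood at 23, 36, 22 and 141. In the GHR-null pool 2 markers were at least 1.5-fold above wild type and 1 below, with a median of -0.04. The 2 were the keratin gene Krt23, at 38, 171, 222 and 340, and Prom1, at 39, 40, 110 and 62, which was named after its values were seen and was 1.77-fold lower in double-null against GHR-null. The part of bile duct cells in the integrin values was not tested.

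Of the 8 leukocyte integrin subunits, Itgb2, Itga4, Itgam, Itgal and Itgax were at least 1.5-fold higher with MDR2 loss alone, and Itgb7, Itgae and Itgad were not. Itgb2, the beta chain shared by the main leukocyte integrins, stood at 82 in wild type, 223 with MDR2 loss, 132 with GHR loss and 300 with both. Most of its difference lay between the wild-type and MDR2-null pools (2.72-fold), and the double-null pool was a further 1.35-fold higher. Itgal, the alpha chain of LFA-1, stood at 107, 190, 152 and 220, and Itga4, the alpha chain of the VCAM-1 receptor, at 90, 185, 125 and 277. These 3 genes were also above wild type in the GHR-null pool, by 1.61-fold, 1.42-fold and 1.39-fold.

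Itgam and Itgax, the alpha chains CD11b and CD11c of myeloid cells, had another order. Itgam stood at 35 in wild type, 65 with MDR2 loss, 36 with GHR loss and 131 with both. Itgax stood at 50, 80, 49 and 172. The GHR-null pool lay within 1.03-fold of wild type for both genes, and the double-null pool was 2.02-fold and 2.15-fold above the MDR2-null pool. Itgad, the alpha chain CD11d, stood at 105, 97, 72 and 91 and was highest in the wild-type pool. Itgam, Itgax and Itgad lie side by side on chromosome 7 with 0 protein-coding genes between neighbours in the RefSeq order.

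The subunits of lymphocytes in mucosa were low throughout. Itgae, which pairs with beta 7 and binds E-cadherin, ranged from 55 to 64 over the 4 pools. Itgb7 stood at 67, 88, 68 and 88. Over the 8 leukocyte subunits the median was 0.75 above wild type in the MDR2-null pool, with 5 past 1.5-fold, and 0.32 in the double-null against the MDR2-null pool, with 2 past it.

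Leukocyte markers and many macrophage markers were higher in the same pools, while most lymphocyte, natural killer cell and neutrophil markers stayed near background. The summed intensity of 5 pan-leukocyte markers was 835 in wild type, 2057 with MDR2 loss, 1458 with GHR loss and 2842 with both. That of 13 macrophage markers was 4652, 9504, 6449 and 12528. At least 1.5-fold higher with MDR2 loss alone were 4 of the 5 and 9 of the 13, and in double-null against MDR2-null 3 and 4, with 0 lower. At any size, 9 macrophage markers were higher and 4 lower in that second comparison, with a median of 0.26. The 4 lower were Clec4f, Vsig4, Timd4 and Cd5l, and Clec4f stood at 677, 885, 993 and 628. Lyz2, the largest part of the double-null macrophage sum, stood at 847, 2879, 977 and 5243. Ptprc, the gene of the leukocyte antigen CD45, stood at 152, 291, 249 and 410. Cx3cr1, a chemokine receptor of monocytes, stood at 72, 168, 62 and 525, with the wild-type and GHR-null levels both under 100.

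Under 100 on every array were 9 of 10 neutrophil markers, 7 of 9 T cell markers, 7 of 7 natural killer cell markers, 3 of 5 B cell markers and 5 of 7 dendritic cell markers. In the double-null against the MDR2-null pool the medians of the neutrophil, T cell and natural killer cell markers were -0.13, -0.14 and -0.25, and each turned above 0 with centring on the hepatocyte mean. The B cell markers Cd79b and Ms4a1 and the T cell marker Cd3e were highest in the GHR-null pool, at 125, 39 and 174, where wild type had 91, 23 and 94. Blnk, at 44, 102, 40 and 60, and Cd22, at 53, 59, 53 and 66, were not highest there. In GHR-null against wild type 3 of 5 B cell markers were higher and 1 lower. Of the 9 T cell markers 5 were higher and 2 lower, with a median of 0.05, the same as over all genes. The part of leukocyte number in the integrin values was not tested.

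**Figure D3:**
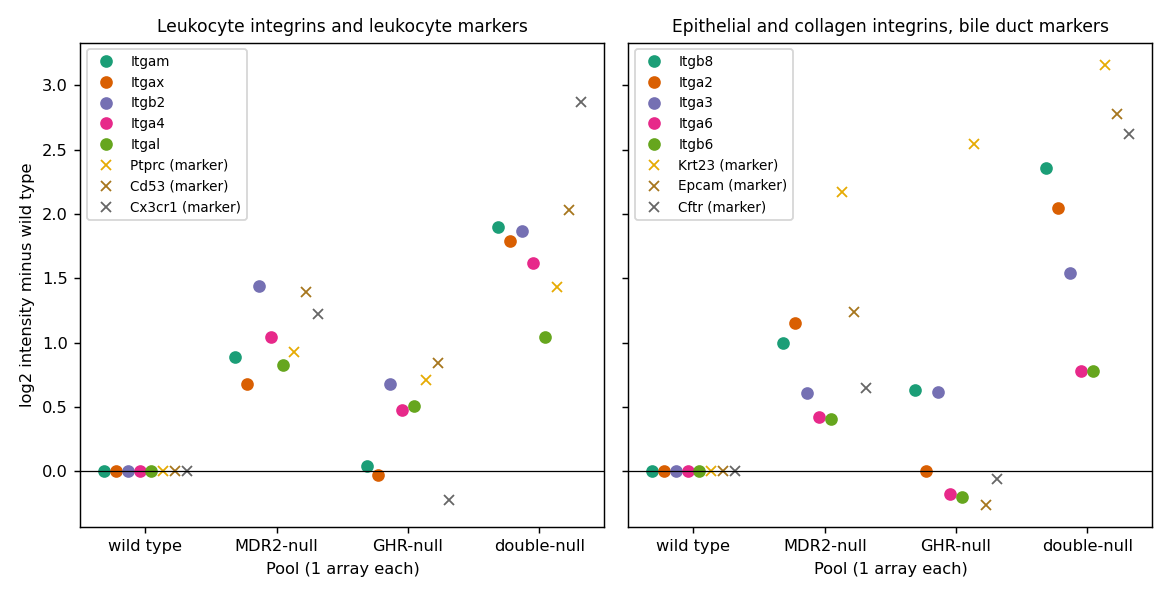
Log2 intensity minus the wild-type pool (y axis) in the 4 pools (x axis, 1 array each) for leukocyte integrins with leukocyte markers (left) and for epithelial integrins and Itga2 with bile duct markers (right); circles are members and crosses markers. Itgam and Itgax lie at 0.04 and -0.03 for GHR-null and at 1.90 and 1.78 for double-null.

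Of the 13 matrix-binding integrins, Itga2 and Itgav were at least 1.5-fold higher with MDR2 loss alone, and Itga2, Itga8 and Itgb3 in double-null against MDR2-null. Itga2, the alpha chain of a collagen receptor of epithelia and platelets, stood at 63 in wild type, 140 with MDR2 loss, 63 with GHR loss and 261 with both. Its neighbour on chromosome 13, Itga1, the alpha chain of another collagen receptor, stood at 400, 388, 540 and 499. Only Itga2 was high in the pools without MDR2, and Itga1 was higher in the pools without GHR. The collagen receptor chains Itga10 and Itga11 stood at 65, 86, 73 and 72 and at 50, 57, 53 and 45.

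Itgav, the shared alpha chain of the receptors that bind RGD sequences, stood at 444, 697, 452 and 912 in the usual order of pools. Its possible partners Itgb5 and Itgb1 stood at 894, 1208, 1082 and 1395 and at 822, 1062, 972 and 1324, with the pools ranked as for Itgav. Itgb3, another partner, stood at 111, 105, 133 and 159. Of these chains, only Itgav was past 1.5-fold in the MDR2-null pool, and only Itgb3 was past it in the double-null against the MDR2-null pool.

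Itga8, a receptor chain of stellate cells and smooth muscle for nephronectin and fibronectin, stood at 132, 146, 171 and 256. The double-null pool was 1.75-fold above the MDR2-null pool. Itga5, the fibronectin receptor chain, stood at 389, 378, 487 and 384, and was highest in the GHR-null pool. Itga9, which binds tenascin, stood at 378, 470, 513 and 543, and Itga7, a laminin receptor chain of muscle, at 110, 90, 147 and 131. The platelet chain Itga2b ranged from 101 to 116, and the summed intensity of 5 platelet markers was 309, 340, 345 and 365.

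Over these 13 subunits the median was 0.19 with MDR2 loss, 0.26 with GHR loss, and 0.32 for double-null against MDR2-null, with 2, 0 and 3 past 1.5-fold. Stellate cell and fibroblast markers were 1.5-fold higher in 6 of 14 in the MDR2-null pool, and 3 were higher and 2 lower in the double-null against the MDR2-null pool. In that second comparison the 2 lower were Lrat and Ngfr. Pdgfra, among the 3 higher, stood at 205 and 446. Acta2, the smooth muscle actin, stood at 324 and 223, 1.45-fold lower and so short of the threshold. The summed intensity of the 14 markers was 6554, 9230, 7953 and 11817, of which Dcn alone gave 3591, 4928, 4295 and 6466. The part of these cells in the integrin values was not tested.

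Of the ligands and related receptors, Cd44, Vcam1 and Icam1 had the largest differences. Cd44, a hyaluronan receptor of leukocytes and activated epithelium, stood at 74 in wild type, 229 with MDR2 loss, 112 with GHR loss and 488 with both. Vcam1, the ligand of alpha 4 integrins, stood at 147, 399, 180 and 875. Icam1, the ligand of the beta 2 integrins, stood at 154, 346, 224 and 579. Each gene had the same order of pools, wild type lowest, then GHR-null, MDR2-null and double-null. Against wild type the double-null pool was 6.59-fold, 5.95-fold and 3.76-fold higher.

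The vessel-wall molecules Icam2 and Sele did not share this pattern. Icam2, present on resting endothelium, stood at 113, 105, 121 and 77 in the usual order of pools. It was 1.57-fold below its GHR-null level in the double-null pool, the 1 member past 1.5-fold in that direction, and its difference of -0.65 was -0.39 and -0.58, short of that size, when scaled to the hepatocyte mean or median. Sele, the E-selectin induced on inflamed endothelium, ranged from 50 to 57. Selplg, the leukocyte ligand of P-selectin, stood at 107, 154, 109 and 160, with little difference between MDR2-null and double-null. In the same comparison, double-null against GHR-null, 9 of 10 endothelial markers were lower, with a median of -0.56, and 5 of them by at least 1.5-fold, among them Kdr, a receptor of VEGF, at 540 (GHR-null) and 313 (double-null). Against MDR2-null 9 of 10 were also lower, all by under 1.5-fold, with a median of -0.19 that turned above 0 with centring on the hepatocyte mean. Their summed intensity was 5677, 6041, 7153 and 5585, and their part in the Icam2 value was not tested.

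Loss of GHR with MDR2 intact gave smaller differences. In the GHR-null against the wild-type pool 4 of 32 members were at least 1.5-fold higher, where 2.55% of all genes were, and 0 lower, where 1.65% were. The 4 were Itgb2, Itgb8, Itga3 and Cd44, at 0.60 to 0.69 log2 units, close to the threshold. The count was 2 with median centring or cyclic loess, 1 with centring on the hepatocyte median and 0 at 2-fold, a size at which 0.587% of all genes were higher and 0.537% lower. The median member was 0.20 above wild type, against 0.05 over all genes. These values come from the pool with Xist at 1400.

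Against wild type the double-null pool had 17 members at least 1.5-fold higher and 0 lower, where 8.65% and 4.43% of all genes were. Against the GHR-null pool it had 13 higher and 1 lower, where 6.48% and 5.68% were. With the low genes left out 8 of 20 members were higher there, where 7.95% of genes were. That filter takes the mean over the same 4 arrays, so the count is not independent of it and is no check of the 13. Itga2, among the 8, stood at 63 in the GHR-null pool, under the cut of 99.2. At 2-fold 0 of 32 members were lower, where 1.71% of all genes were. The median member stood 0.66 above wild type and 0.54 above the GHR-null pool.

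**Figure D4:**
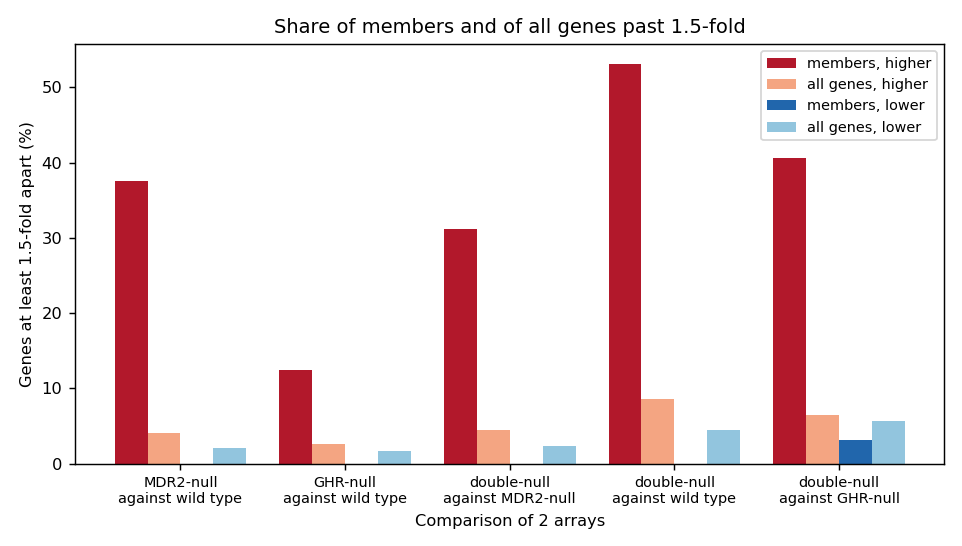
Percent of the 32 members and of all 19938 genes (y axis) that were at least 1.5-fold higher or lower in each comparison of 2 arrays (x axis). The members' share was 37.5% higher in MDR2-null against wild type, 12.5% in GHR-null against wild type and 31.2% in double-null against MDR2-null.

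For some members the GHR-loss difference was much larger without MDR2 than with it. Non-additivity, the double-null minus MDR2-null difference less the GHR-null minus wild-type difference, was above 0 for 22 of 32 members and for 42.3% of all genes. It was over 2 robust SDs of all genes (0.56 log2) for 6 members, Itgax at 1.13, Itgam at 0.97, Itga2 at 0.90, Vcam1 at 0.84, Itgb8 at 0.73 and Itgb6 at 0.57, where 4.08% of all genes were. All 5 epithelial subunits were above 0, with a median of 0.53. Itgb2 and Itgal were below 0, at -0.26 and -0.29, and the lowest member was Icam2 at -0.55. For Itgax, Itgam and Itgb8 only the double-null level was above 100, and Itgb6 stayed under 100 throughout. The measure rests on single arrays, the GHR-null pool among them, and has no test.

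**Figure D5:**
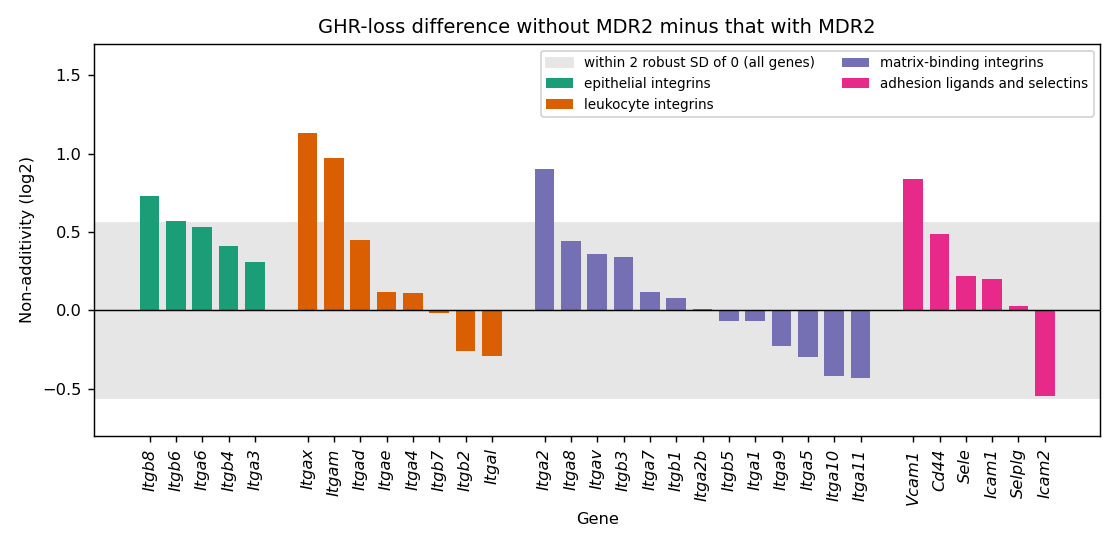
Non-additivity in log2 units (y axis) of each member (x axis), that is, the difference with GHR loss in the absence of MDR2 minus that in its presence; the grey band is 2 robust SDs over all genes, 0.56 either side of 0. Bars of Itgax, Itgam, Itga2, Vcam1, Itgb8 and Itgb6 leave the band.

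The only test the design allows is limma with MDR2 and GHR status as additive factors over the 4 arrays, which takes the effect of each loss as equal whether or not the other gene is present. Over all 19938 genes no gene passed an adjusted p of 0.05 for either loss, and the adjusted p was 0.34 for Cd44, Vcam1, Icam1 and Itgb2 with MDR2 loss. At an unadjusted p under 0.05, 17 of 32 members were higher with MDR2 loss and 0 lower, where 7.99% and 6.55% of all genes were. For GHR loss these were 9 and 0 members, where 5.22% and 3.4% were. The average difference with MDR2 loss was 1.88 ± 0.18 log2 (SE) for Cd44, 1.86 ± 0.28 for Vcam1, 1.31 ± 0.12 for Itgb2 and 1.27 ± 0.11 for Icam1.

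When genes with a mean level under the median were left out, 3.75% of 9969 genes were called higher with MDR2 loss and 1.46% lower. Among the 20 members left, Cd44, Icam1, Vcam1, Itgb2, Itga4, Itga2, Itgav and Itga3 were called higher and 0 lower. The filter takes the mean over the same 4 arrays as the fit. In the wild-type pool Cd44, Itgb2, Itga4, Itga2 and Itga3 were under its cut of 99.2. Itga2 stood at 63 there and in the GHR-null pool. These calls are therefore not independent of the filter. The adjusted p of the called members ran from 0.0095 for Cd44 to 0.049 for Itga3. Over all 9 settings it ran from 1.7e-18 to 0.34 for Cd44 and from 0.00058 to 0.34 for Itga3. Centring on the hepatocyte mean gave infinite prior degrees of freedom, so p-values in that setting rest on a variance shared over genes. They are no measure of the spread between livers. Scaling moved these calls over all genes: 7 members were called higher with MDR2 loss after cyclic loess, where 1.49% of genes were higher and 0.306% lower, 7 after centring on the hepatocyte median (1.33% and 0.281%) and 15 on the hepatocyte mean (7.87% and 1.75%). For GHR loss 0 members passed with that filter, where 0.261% of genes were called higher and 0.431% lower. Without the filter it was 0 members after cyclic loess (0.11% of genes higher, 0.201% lower) or hepatocyte median centring (0.0853% and 0.171%), and 10 with the hepatocyte mean (3.85% and 0.888%). Without the GHR-null array the fit has no residual degrees of freedom and gives no test.

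Some genes of the ligands that these integrins bind were higher. Of 11 laminin-related genes, 1 was at least 1.5-fold higher in the MDR2-null than in the wild-type pool, where 4.09% of all genes were. The 1 gene was Nid1, which links laminin to collagen in basement membranes, at 199 in wild type, 727 with MDR2 loss, 280 with GHR loss and 883 with both. In the double-null against the MDR2-null pool 3 were higher and 1 lower, where 4.45% and 2.31% of all genes were. Lama5, a laminin of epithelial basement membranes, stood at 81, 112, 86 and 213, and Lama3 at 86, 85, 59 and 53.

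A list of 16 genes covered ligands of RGD-binding and tenascin receptors together with genes of latent TGF beta, Tgfb2 among the latter. Of these, 5 were at least 1.5-fold higher in the MDR2-null than in the wild-type pool. In double-null against MDR2-null 5 were higher, with 0 lower in either. Over all genes 4.09% and 4.45% were higher in these comparisons and 2.03% and 2.31% lower. Mfge8, a bridge between alpha v integrins and dying cells, stood at 155, 1251, 227 and 1404. Tgfb2 stood at 46, 116, 48 and 229, Thbs1 at 61, 146, 84 and 262, and Ccn2, a matricellular ligand, at 258, 532, 202 and 2197. Mfge8 had nearly the same level in both pools without MDR2, while the other 3 were over 1.5-fold higher in the double-null pool. The list also held genes without this rise. Fn1 stood at 6500, 7034, 8053 and 6231, and Vtn at 10716, 11893, 10599 and 10181. Fga stood at 4279, 2917, 3196 and 2424, and was 1.77-fold lower in double-null against wild type. The summed intensity of the 16 genes was 46614, 46991, 44626 and 44672.

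Of 22 intracellular activators and adhesion-complex genes, 3 were at least 1.5-fold higher in the MDR2-null than in the wild-type pool, where 4.09% of all genes were, and 0 lower. They were the kindlin Fermt1 at 35 and 70, the parvin Parvg at 67 and 127 and the kinase Src at 158 and 246. From MDR2-null to double-null, 0 of 22 were 1.5-fold apart in either direction, and the median was 0.10. Against wild type the double-null pool had 7 of 22 higher, where 8.65% of all genes were, and 0 lower, with a median of 0.28. Vcl, which encodes vinculin, a link of integrins to actin, was among the 7 and stood at 380, 548, 435 and 621.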

How the data were processed

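Labelled liver RNA of 4 pools was hybridised to Affymetrix whole-transcript arrays. Per the submitters' processing notes the authors deposited intensity values from RMA in Affymetrix Expression Console 1.1. They were whole numbers not yet in logs, and were put on the log2 scale. Rounding makes low values coarse. No scanner files or detection calls were used here. The array number limits the precision.

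Of 35556 rows, 21789 had exactly 1 gene symbol in GEO's platform annotation, 1621 several and 12146 none. Only the first were used, which left out 3 rows that list Itgam beside Rpl35. A gene with several rows was read from its row of highest mean level on the 4 arrays. Among the members this was Itgad, whose other row held 27 to 33. No build is named for the probe sets.

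Members, groups and lists were chosen with earlier results of these data known. Genes named are all members, the label checks, and up to 4 genes of each other list with the largest difference in the MDR2-null against wild-type or double-null against MDR2-null comparison. Prom1, Clec4f, Vsig4, Timd4, Cd5l, Lrat, Ngfr, Dcn, Fn1, Vtn and Fga were named after their values were seen. Pairwise differences were counted at 1.5-fold over all genes, with no level filter. limma 3.58.1 (lmFit, eBayes with an intensity trend, Benjamini-Hochberg adjustment) had 1 residual and 1.53 prior degrees of freedom over all genes, and 4.97 prior degrees over genes with a mean log2 level at or above the median (intensity 99.2). It was tested on simulated data: with all genes the added changes were not called, and with the level filter most were. Alternatives are given in the closing section.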

Additional observations from a re-analysis of the deposited data

Results flagged for a closer look

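Itgax was noted because its values with GHR loss have opposite signs. The GHR-null against wild-type difference was -0.03 log2 and the double-null against MDR2-null difference 1.10, and the difference between them was not tested. The first is 49 against 50, a difference of 1 rounded unit under 100, which gives no direction. Xist was noted in the same way, at 6.45 and -0.08, and with MDR2 loss at 0.17 with GHR intact and -6.36 without it. Its 0.17 and -0.08 lie among intensities of 16 to 18 and carry no direction either. The difference was not tested, and rests on the GHR-null pool.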

How the results depend on the processing

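At 2-fold the members higher were 7 in MDR2-null against wild type, 0 in GHR-null against wild type and 5 in double-null against MDR2-null, and 0 were lower in double-null against GHR-null. In GHR-null against wild type the count of 4 higher was 2 with median centring, 2 with cyclic loess and 1 with centring on the hepatocyte median, and 1 member was lower with median centring and 1 with the hepatocyte median. In double-null against wild type 1 member was lower with median centring and 1 with cyclic loess. Centring on the hepatocyte mean, which Fgl1 moves, shifted the median of all genes by 0.26 in double-null against MDR2-null. It gave 17 members higher there, and 21 higher and 0 lower in double-null against GHR-null. The level filter gave 8 higher in that last comparison, over 20 members in place of 32, and hepatocyte median centring 0 lower. That filter takes its mean over the same arrays, so its count is not independent of it. Median centring shifted all genes by -0.13 in MDR2-null against wild type and -0.18 in double-null against wild type. The other member counts stayed within 1.5 times.

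limma called 0 members for MDR2 loss over all genes, and 8 higher with the level filter, 7 with cyclic loess, 15 with hepatocyte mean centring and 7 with hepatocyte median centring. Some of the 8 were under the filter's cut in the wild-type pool. For GHR loss it called 0, and 10 with hepatocyte mean centring. The prior degrees of freedom were 1.53 over all genes, 4.97 with the level filter and 4.75 with cyclic loess. They were 4.57 with hepatocyte median centring and infinite with hepatocyte mean centring. Median centring, the mean of all rows, no intensity trend and a robust prior gave 0 calls, with 1.41 to 2.5 prior degrees. The cause of these moves was not tested.

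In GHR-null against wild type the epithelial value with the level filter was 0.62, that of Itga3 alone, the only epithelial subunit kept. It is no reversal of the group. The leukocyte median was -0.02 with median centring and -0.06 with the hepatocyte median. The leukocyte non-additivity median was -0.26 with the filter, which keeps only Itga4, Itgal and Itgb2 of that group and drops Itgam and Itgax. The matrix-binding median in double-null against GHR-null was -0.05 with median centring. No single member past 1.5-fold changed direction under the level filter, the scalings or the mean of all rows. Centring on the hepatocyte median was chosen after seeing the data. No paired analysis was possible because each genotype is 1 array. Intensities under 100 limit what can be said of 6 members on every array, and of others, such as Itgb8, Itgam and Itgax, outside the double-null pool.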

Other observations

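Other adhesion molecules were partly higher in the same pools. Of 23 measured, 6 were at least 1.5-fold higher in MDR2-null against wild type and 5 in double-null against MDR2-null, with 0 lower in either. The shares of all genes were 4.09% and 4.45% higher and 2.03% and 2.31% lower. Cd24a, a surface glycoprotein of immature bile duct cells and of leukocytes, stood at 106 in wild type, 470 with MDR2 loss, 126 with GHR loss and 1722 with both. Cd34, a sialomucin of vessels and progenitors, stood at 87, 151, 98 and 314, and Cd48, a leukocyte receptor, at 51, 91, 75 and 179. Cdh1, which encodes E-cadherin, the ligand of the Itgae chain, stood at 586, 1150, 385 and 1256. It was high in both pools without MDR2 and lowest in the GHR-null pool.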
